A study of Sus scrofa with 23 samples.

Results

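Molecular chaperones bind unfolded or partly folded proteins and help them to fold, assemble, cross membranes or be degraded. The HSP70 proteins (gene symbols HSPA) act in cycles of ATP hydrolysis driven by J-domain partners (DNAJ), HSP90 takes over many clients from HSP70, and the ring-shaped chaperonins, HSPD1 with HSPE1 in mitochondria and CCT in the cytosol, enclose their clients. The small heat shock proteins (HSPB) bind clients without ATP and are abundant in striated muscle, where several of them associate with the contractile and cytoskeletal filaments.

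The genes described here are those whose array symbol begins with HSPA, HSPB, HSPD, HSPE, HSPH, HSP90, DNAJ or CCT followed by a digit, with HSPB7 and HSP70.2 left out. The rule found 49 genes, measured by 79 probe sets, among 6765 genes and 23999 probe sets in all. They comprised 5 small heat shock protein genes, 9 HSP70 genes, 1 HSP110 gene, 3 HSP90 genes, 2 genes of the mitochondrial chaperonin, 5 CCT subunits, and 4 DNAJA, 7 DNAJB and 11 DNAJC genes. Another 2 share only the letters HSPB: HSPB11 is a subunit of the intraflagellar transport complex, and HSPBP1 is a nucleotide exchange factor of HSP70. Where a gene has several probe sets, the one of highest mean signal in the 23 samples stands for it. For 44 of the 49 genes that mean exceeded the median over the array. Those below it were DNAJB14, DNAJC3, DNAJC6, DNAJC9 and HSPA12A. Of the 49 genes, 19 have several probe sets on the array.

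The samples were 23 arrays of porcine total RNA, 1 linear signal a probe set, scaled by the authors to a common mean. All came from offspring of German Landrace gilts that received the gestational low protein (LP) diet, and they were taken at 94 dpc (days post conception, 5 samples) and at 1, 28 and 188 dpn (days post natum, 6 samples each). Every group therefore carries the diet, and the comparisons are between ages. Offspring of 3 gilts were taken per stage and the labels do not name the dam of a sample, so that animals of a stage can be littermates and the p-values can be too small.

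All samples were labelled liver, whereas the series title names muscle. The 13 measured of 17 skeletal muscle markers ranked within each sample at a median percentile between 99.2 and 99.9, and the 16 measured of 18 hepatocyte markers at one between 14.6 and 88.5. The labelled tissue thus went against its markers, and the samples are called here by their stage. The summed signal of the muscle markers was 322731 to 379946 at 94 dpc, 408827 to 747299 at 1 dpn, 573198 to 954182 at 28 dpn and 795757 to 1035380 at 188 dpn. That of 7 fibroblast markers was 48153 to 67332, 13262 to 32579, 15789 to 37693 and 11378 to 18097 in the same order. For 7 endothelial markers it was 9131 to 15130, 3419 to 5485, 6424 to 9165 and 2738 to 4141. That of the hepatocyte markers was 12330 to 40457, 4856 to 22402, 2075 to 38037 and 3294 to 30631. The medians were 19843, 13631, 3450 and 10516, so that the highest sum at 28 dpn stood far above the median there. Among fits that left out 1 sample, TF, TTR, HP, FGB, FGG and CYP2E1 differed between 188 dpn and 28 dpn only without 28 dpn replicate 1 (limma, adjusted p under 0.05). None of the values of the muscle, fibroblast, endothelial or hepatocyte markers was 0. In such bulk samples fewer cells of a type and less RNA per cell cannot be told apart, and the part that these shifts in makeup play in the chaperone results was not tested. In 3 of the 1 dpn samples, replicates 2, 4 and 5, the 5′ to 3′ signal ratio of 1 GAPDH control pair was 0.0868 to 0.148, against 1.09 to 1.29 in the other 20 samples. This pair gives the GAPDH ratio used below. The ratio of the other GAPDH pair was 0.273 to 0.522 against 0.659 to 0.923. Of 2 actin pairs, 1 had 0.0319 to 0.0451 against 0.0822 to 0.280. The other had 0.817 to 1.01 against 0.820 to 1.61 and did not set these samples apart. The former actin pair also split 28 dpn from 188 dpn without overlap. Every 28 dpn array lay between 0.0822 and 0.128, and every 188 dpn array between 0.167 and 0.207. Values of the dap control split them as well, between 0.0696 and 0.09805 against 0.335 and 0.392. What part these control differences play in the comparison of 188 dpn with 28 dpn was not tested. Because of these GAPDH ratios, comparisons with 1 dpn were repeated without these 3 samples, as an alternative chosen after seeing the data. The called changes and the counts of calls without them are given after those of all samples. The F test, stage of highest mean, range of stage means and counts by scaling or probe set are not given without them.

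Stage means differed for 35 of the 49 chaperone genes by the moderated F test of limma over the 4 stages (adjusted p under 0.05), a share of 71.4%, against 60.2% of all genes. The mean was highest at 94 dpc for 13 of them, at 1 dpn for 19, at 28 dpn for 4 and at 188 dpn for 13. Over all genes the shares with the highest mean at these stages were 35.5%, 23.8%, 14.7% and 26.0%, against 26.5%, 38.8%, 8.16% and 26.5% of the chaperone genes. The range of a gene's 4 stage means had a median of 1.03 on the log2(signal + 16) scale for the chaperone genes and 0.96 for all genes.

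**Figure D1:**
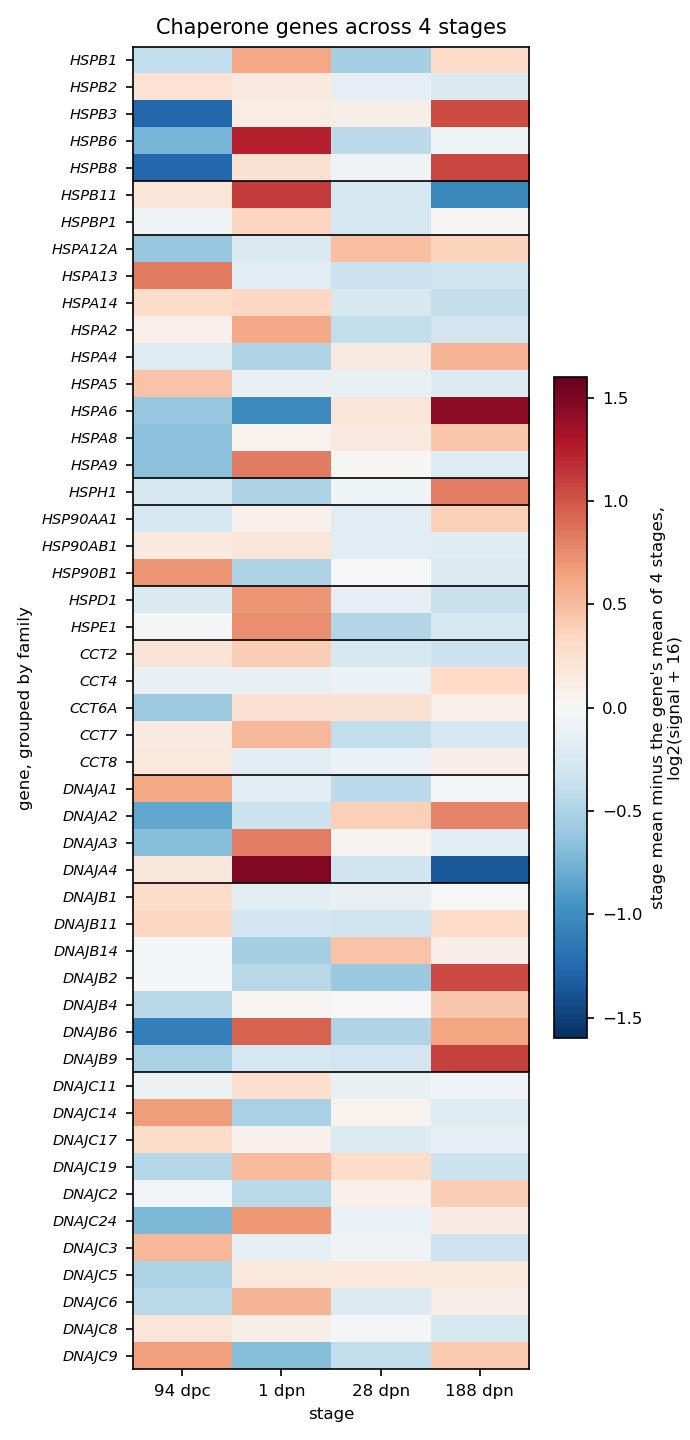
Stage means of the 49 chaperone genes (rows, grouped by family, black lines between families) at the 4 stages (columns), as the difference from the gene's mean of 4 stages on the log2(signal + 16) scale, red above and blue below. HSPB3 and HSPB8 are lowest at 94 dpc and highest at 188 dpn, while HSPB6, DNAJA4, HSPD1 and HSPE1 are highest at 1 dpn.

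At 1 dpn against 94 dpc, 17 of 49 chaperone genes were higher and 5 were lower, against 13.7% higher and 19.5% lower among all genes (limma, adjusted p under 0.05 over all probe sets). The median log2 change was 0.35 for the chaperone genes and -0.06 for all genes. Without the 3 samples of low GAPDH ratio, 15 were higher, 12 of them among the 17, and 4 were lower, 3 of them among the 5.

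At 28 dpn against 1 dpn the balance was the other way, with 5 genes higher and 13 lower, against 13.5% and 10.7% of all genes. The median log2 change was -0.17 for the chaperone genes and 0.02 for all genes. Without the 3 samples, 2 were higher, both among the 5, and 12 were lower, 9 of them among the 13. These first comparisons share the 1 dpn samples, so their opposite signs are not independent.

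At 188 dpn against 28 dpn, 8 chaperone genes were higher and 3 lower, against 5.79% and 12.5% of all genes, with median log2 changes of 0.12 for the chaperone genes and -0.06 for all genes. At 188 dpn against 94 dpc, 19 were higher and 10 lower, against 19.5% and 27.6%, with medians of 0.11 and -0.08. Of these 19 higher calls 8, and of the 10 lower calls 4, were lost when some single sample was left out. The fits mentioned below as without 1 sample each left out 1 sample of the 2 stages compared.

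The balance of higher and lower calls differed with the scaling. Of all called genes, 41.3% were higher at 1 dpn than at 94 dpc with the scaling of the authors, 52.8% with quantile-normalized values and 66.6% when every array was centred on its median. At 28 dpn against 1 dpn these shares were 55.8%, 52.3% and 46.5%. At 188 dpn against 28 dpn they were 31.6%, 38.1% and 43.9%, and at 188 dpn against 94 dpc 41.4%, 50.5% and 59.6%. The median log2 change of all genes at 1 dpn against 94 dpc was -0.06 with the scaling of the authors, 0.07 with quantile-normalized values and 0.21 with centred arrays, so that each change of a single gene is relative to the scaling. The chaperone genes called higher and lower at 1 dpn against 94 dpc numbered 15 and 6 with quantile-normalized values and 21 and 4 with centred arrays. For 28 dpn against 1 dpn they numbered 4 and 12, and 2 and 13, against 5 and 13 with the scaling of the authors. At 188 dpn against 28 dpn they numbered 8 and 2, and 10 and 1, and at 188 dpn against 94 dpc 17 and 12, and 23 and 5. Not called with quantile-normalized values were, beside the genes said below, HSPD1 and HSPA6 at 28 dpn against 1 dpn, HSPB11 at 188 dpn against 28 dpn, and HSPB1, HSPB6, CCT4, DNAJC8, DNAJC17 and HSPA14 at 188 dpn against 94 dpc, as well as HSPD1 at 1 dpn against 94 dpc. Not called with centred arrays were DNAJA1 at 1 dpn against 94 dpc, and DNAJC14, HSPA4 and HSPA6 at 28 dpn against 1 dpn. The same held for DNAJC19 and HSPB11 at 188 dpn against 28 dpn, and for CCT2, DNAJC17, DNAJC8, HSPA14 and HSPA5 at 188 dpn against 94 dpc.

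Other probe sets of the called genes often missed the threshold. Those called in the same direction were 4 of 16 at 1 dpn against 94 dpc, 3 of 11 at 28 dpn against 1 dpn, 5 of 10 at 188 dpn against 28 dpn and 7 of 23 at 188 dpn against 94 dpc. In the last of these comparisons 3, all of HSPA8, were called the opposite way, and the rest were not called. When each gene was given the mean of its probe sets, some calls were lost. At 1 dpn against 94 dpc these were the rises of HSPB6, CCT6A and HSPA8 and the fall of HSPA13, and the counts became 16 higher and 8 lower. At 28 dpn against 1 dpn the rises of DNAJB14, DNAJC14 and HSPA4 and the fall of HSPB6 were lost, with 4 higher and 13 lower. The fall of DNAJA4 was lost at 188 dpn against 28 dpn, where 9 were higher and 2 lower. Finally, the rises of HSPB6, CCT4, HSPA4 and HSPA8 were lost at 188 dpn against 94 dpc, where 16 were higher and 15 lower and HSPA8 was called lower.

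Among the small heat shock protein genes, 4 of 5 were higher at 1 dpn than at 94 dpc (80%, against 13.7% of all genes). At 28 dpn 2 were lower than at 1 dpn (40%, against 10.7%), and at 188 dpn 3 were higher than at 28 dpn (60%, against 5.79%). At 188 dpn, 4 of 5 exceeded 94 dpc (80%, against 19.5%). Without the low-GAPDH samples the same 4 were higher at 1 dpn. At 28 dpn 3 were then lower, 2 of them those of all samples. HSPB8, which with the co-chaperone BAG3 directs damaged filament proteins to autophagy, had signals of 4129, 2579, 2954, 2851 and 1972 at 94 dpc and 6694 to 10876 (median 7777) at 1 dpn. At 28 dpn it had 5599 to 7449.8 (median 6628), and at 188 dpn 10086 to 19722 (median 15441). Every sample after birth lay above every sample at 94 dpc, and every sample at 188 dpn except replicates 1 and 2 lay above all 1 dpn samples. The mean was 14588 ± 3764 at 188 dpn and 2897 ± 787 at 94 dpc (SD, n = 6 and 5), 5.01-fold higher (log2 change 2.32 ± 0.20, adjusted p = 4.54e-09). Here and below, the ± of a log2 change is its moderated standard error from limma, and that of a mean signal is the SD. The rise by 1 dpn (log2 change 1.51 ± 0.20, adjusted p = 9.13e-06) and that by 188 dpn over 28 dpn (log2 change 1.12 ± 0.20, adjusted p = 0.000383) were called as well, while 28 dpn against 1 dpn was not called (-0.30 ± 0.20, adjusted p = 0.333). The rise by 1 dpn held without the low-GAPDH samples (1.58, adjusted p = 0.000134).

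HSPB3, which forms complexes with HSPB2 in muscle, had a similar order of stages. Its signals were 536, 487, 326, 609 and 532 at 94 dpc and 643 to 1973 (median 1484) at 1 dpn. The signals were 1180.1 to 1333 (median 1276) at 28 dpn and 1709 to 2954 (median 2503) at 188 dpn. The 188 dpn samples overlapped those of 1 dpn and lay above all at 28 dpn and 94 dpc. It was 4.89-fold higher at 188 dpn than at 94 dpc (log2 change 2.29 ± 0.24, adjusted p = 6.01e-08), and higher at 1 dpn than at 94 dpc (log2 change 1.37 ± 0.24, adjusted p = 0.000157) and at 188 dpn than at 28 dpn (log2 change 0.95 ± 0.23, adjusted p = 0.00641). Its rise by 1 dpn was called without the low-GAPDH samples too (1.80, adjusted p = 5.01e-06). HSPB2 itself passed no test, with stage means of 6443, 6451, 4872 and 4619 in the order of age. Without the low-GAPDH samples, in each of which HSPB2 lay below the other 3 samples of 1 dpn, it was lower at 28 dpn than at 1 dpn (log2 change -0.81, adjusted p = 0.00265).

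HSPB6, another of the small heat shock protein genes, peaked at 1 dpn. It had 3119, 2985, 2226, 1834 and 1856 at 94 dpc and 6195 to 12748 (median 9619) at 1 dpn. The signals at 28 dpn were 2227 to 4149 (median 2911), and those at 188 dpn 2407 to 5823 (median 4050.2). All 1 dpn samples lay above all samples of the other stages. The mean was 9683 ± 2763 at 1 dpn and 2404 ± 613 at 94 dpc (SD, n = 6 and 5), 3.97-fold higher (log2 change 1.99 ± 0.25, adjusted p = 3.74e-06), and 28 dpn was 3.17-fold lower than 1 dpn (log2 change -1.67 ± 0.24, adjusted p = 3.79e-05). Both calls held without the low-GAPDH samples (1.91, adjusted p = 0.000111, and -1.59, adjusted p = 0.00111). The other HSPB6 probe set, at 332 ± 238 at 1 dpn and 449.6 ± 109.6 at 94 dpc (SD), was not called (log2 change -0.76 ± 0.41, adjusted p = 0.195). With the mean of both probe sets neither of these calls held (0.62, adjusted p = 0.0873, and -0.70, adjusted p = 0.0537). HSPB6 was also higher at 188 dpn than at 94 dpc (log2 change 0.67 ± 0.25, adjusted p = 0.0392), a call lost in 7 of the 11 fits without 1 sample (adjusted p = 0.053 to 0.103).

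HSPB1, which binds and protects actin filaments, had 10729, 8004, 6987, 10304 and 7716 at 94 dpc and 9560.1 to 31294 (median 17446) at 1 dpn. It had 6129 to 9868 (median 7744) at 28 dpn and 8326 to 19421 (median 14743) at 188 dpn. The spread at 1 dpn was wide, and 1 dpn replicate 1 lay among the 94 dpc samples. HSPB1 was 2.01-fold higher at 1 dpn than at 94 dpc (log2 change 1.01 ± 0.27, adjusted p = 0.00777), 2.22-fold lower at 28 dpn than at 1 dpn (log2 change -1.15 ± 0.26, adjusted p = 0.0032) and 1.79-fold higher at 188 dpn than at 28 dpn (log2 change 0.84 ± 0.26, adjusted p = 0.0323). The changes that involve 1 dpn were called without the low-GAPDH samples (1.14, adjusted p = 0.0159, and -1.29, adjusted p = 0.0112). After quantile normalization the first and the last were not called (adjusted p = 0.124 and 0.0554). The rise at 188 dpn over 28 dpn was lost in 7 of the 12 fits without 1 sample (adjusted p = 0.0504 to 0.0801). The call at 188 dpn against 94 dpc (log2 change 0.69, adjusted p = 0.049996) stood at the threshold and was lost in 8 of the 11 fits without 1 sample (adjusted p = 0.052 to 0.115).

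**Figure D2:**
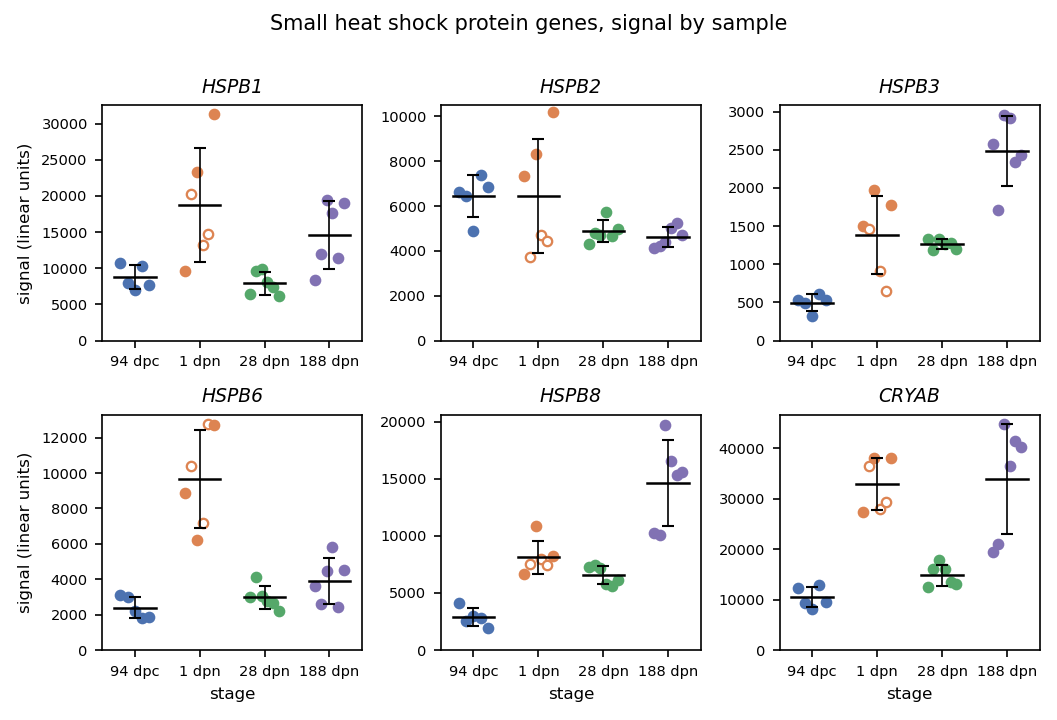
Signal (linear units) of 5 small heat shock protein genes and CRYAB by stage, each point 1 sample, with the mean and SD as black lines and open points for the 3 samples of 1 dpn with a low GAPDH ratio. HSPB6 and HSPB1 are highest at 1 dpn, and HSPB8 and HSPB3 at 188 dpn, where replicates 1 and 2 hold the lowest HSPB8 and CRYAB signals.

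Genes that act with the small heat shock proteins were measured beside them. CRYAB (alpha B-crystallin), the small heat shock protein that binds desmin, had 12272, 9422, 8234, 12843 and 9493 at 94 dpc and 27425 to 38160.1 (median 32964) at 1 dpn. Later it had 12494 to 17783 (median 14794) at 28 dpn and 19374 to 44777 (median 38344) at 188 dpn. It was higher at 1 dpn than at 94 dpc (log2 change 1.66 ± 0.22, adjusted p = 6.43e-06), lower at 28 dpn than at 1 dpn (log2 change -1.14 ± 0.21, adjusted p = 0.000484) and higher at 188 dpn than at 28 dpn (log2 change 1.13 ± 0.21, adjusted p = 0.00065). Leaving out the low-GAPDH samples, the changes of CRYAB that involve 1 dpn were 1.73 and -1.21 (adjusted p = 0.000101 and 0.00383). BAG3, the partner of HSPB8, was 3.75-fold higher at 188 dpn than at 94 dpc (log2 change 1.91 ± 0.23, adjusted p = 4.57e-07), with means of 8121 ± 1469.5 and 2145 ± 346 (SD). Its fall at 28 dpn against 1 dpn (log2 change -0.82 ± 0.22, adjusted p = 0.0112) was not called without the low-GAPDH samples (adjusted p = 0.118). The muscle markers stood beside these genes with 5 of 13 higher at 1 dpn than at 94 dpc (38.5%, against 13.7% of all genes). At 28 dpn 6 of 13 were higher than at 1 dpn (46.2%, against 13.5%). At 188 dpn against 28 dpn 0 of 13 were called by limma (2 at an unadjusted p under 0.05). At 188 dpn 13 of 13 were higher than at 94 dpc (100%, against 19.5%). With the low-GAPDH samples left out, 7 muscle markers, 4 of them among the 5, were higher at 1 dpn than at 94 dpc, and 3, all among the 6, at 28 dpn than at 1 dpn. Their part in the HSPB results was not tested.

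Of the 3 HSP90 genes, 1 was lower at 1 dpn than at 94 dpc, 1 was higher at 188 dpn than at 28 dpn, and at 188 dpn 1 was higher and 1 lower than at 94 dpc. A single gene is 33.3% of the 3, against shares of all genes of 19.5%, 5.79%, 19.5% and 27.6% in the same order. HSP90AA1, the stress-inducible cytosolic form, had 11534, 11737, 13111, 13162 and 13061 at 94 dpc and 12127 to 21716 (median 15525) at 1 dpn. Signals of 11813 to 14583 (median 13603) followed at 28 dpn and 15428 to 23170.0 (median 20322) at 188 dpn. All 188 dpn samples lay above all samples at 28 dpn and 94 dpc. HSP90AA1 was 1.47-fold higher at 188 dpn than at 28 dpn (log2 change 0.55 ± 0.15, adjusted p = 0.0173) and 1.57-fold higher than at 94 dpc (log2 change 0.65 ± 0.16, adjusted p = 0.00244). It was not called at 1 dpn against 94 dpc (0.35 ± 0.16, adjusted p = 0.124) or at 28 dpn against 1 dpn (-0.25 ± 0.15, adjusted p = 0.311).

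The probe sets of HSP90AA1 disagreed. Of the other 4, 2 were higher at 1 dpn than at 94 dpc, with log2 changes of 1.46 ± 0.16 and 1.56 ± 0.23 (adjusted p = 8.38e-07 and 2.22e-05), and the second of these was lower at 28 dpn than at 1 dpn (-1.85 ± 0.22, adjusted p = 3.64e-06). With the mean of its probe sets HSP90AA1 was higher at 1 dpn than at 94 dpc (log2 change 0.56, adjusted p = 0.00341). After quantile normalization the change at 188 dpn against 94 dpc was 0.09 (adjusted p = 0.752).

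HSP90AB1, the constitutive form, had 14415, 13389, 12579, 14359 and 14320.1 at 94 dpc and 11517 to 18195 (median 13864) at 1 dpn. The 28 dpn samples had 8512 to 14099.6 (median 11571) and the 188 dpn samples 9787 to 12029.8 (median 10858). It passed neither the F test nor a test between 2 stages, and its stage means spanned 0.39 on the log2 scale. The lowest adjusted p, 0.0911, was that at 188 dpn against 94 dpc (-0.35 ± 0.16), where all 188 dpn samples lay below all 94 dpc samples. After quantile normalization this difference was called (log2 change -0.93, adjusted p = 8.14e-05). HSP90B1, the endoplasmic reticulum form that folds insulin-like growth factors and integrins, had 1326, 2189, 2623, 2096 and 2286 at 94 dpc and 633 to 1184 (median 871) at 1 dpn. At 28 dpn it had 998 to 1667 (median 1216), and at 188 dpn 764 to 1649 (median 1064). Apart from 94 dpc replicate 1, every sample before birth lay above every later one. HSP90B1 was 2.3-fold lower at 1 dpn than at 94 dpc (log2 change -1.20 ± 0.22, adjusted p = 0.000254) and 1.9-fold lower at 188 dpn than at 94 dpc (log2 change -0.92 ± 0.22, adjusted p = 0.00171). The fall by 1 dpn held without the low-GAPDH samples (-0.96, adjusted p = 0.00795).

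A list of co-chaperones of HSP90 had 16 measured genes. It also held TRAP1, the mitochondrial HSP90 itself, which was not called at 1 dpn against 94 dpc (log2 change 0.21, adjusted p = 0.376). Of the 16, 3 were higher and 1 lower at 1 dpn than at 94 dpc. These were 18.75% and 6.25%, against 13.7% and 19.5% of all genes. At 28 dpn 1 was lower than at 1 dpn (6.25%, against 10.7%). At 188 dpn against 28 dpn none was called by limma (3 at an unadjusted p under 0.05). At 188 dpn 7 were higher and 1 lower than at 94 dpc (43.75% and 6.25%, against 19.5% and 27.6%). STIP1, which hands clients from HSP70 to HSP90, averaged 2434 ± 326 at 28 dpn and 5144 ± 1171 at 1 dpn (SD, n = 6 each) and fell with no overlap (log2 change -1.05 ± 0.18, adjusted p = 0.0003, and -1.10, adjusted p = 0.00104 without the low-GAPDH samples). Without these samples 4 of the 16 were higher and 0 lower at 1 dpn than at 94 dpc by limma. Of these STIP1 alone was among the 3, while CDC37, FKBP4 and STUB1 were newly called and CDC37L1, TTC4 and NUDC were no longer called. At 28 dpn against 1 dpn 2 were then lower, STIP1 and FKBP4. CDC37L1 (log2 change 1.77 ± 0.34, adjusted p = 0.000169), PTGES3, the p23 co-chaperone (log2 change 1.22 ± 0.26, adjusted p = 0.000493), and TTC4 (log2 change 1.15 ± 0.19, adjusted p = 3.82e-05) were higher at 188 dpn than at 94 dpc in every sample. Of the heat shock transcription factor group, 1 of 3 was called, HSF1, higher at 1 dpn (log2 change 0.67 ± 0.24, adjusted p = 0.0399, lost in 7 of the 11 fits without 1 sample (adjusted p = 0.0618 to 0.102)) and at 188 dpn (log2 change 0.96 ± 0.24, adjusted p = 0.00246) than at 94 dpc. Without the low-GAPDH samples the first was not called (adjusted p = 0.149). In these comparisons 1 of 3 is 33.3%, against 13.7% and 19.5% of all genes.

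The 9 HSP70 genes went in both directions. At 1 dpn 2 were higher and 1 lower than at 94 dpc (22.2% and 11.1%, against 13.7% and 19.5% of all genes). At 28 dpn 2 were higher and 2 lower than at 1 dpn (22.2% each, against 13.5% and 10.7%). At 188 dpn against 28 dpn 0 were called by limma (1 at an unadjusted p under 0.05). At 188 dpn 4 were higher and 3 lower than at 94 dpc (44.4% and 33.3%, against 19.5% and 27.6%). Without the low-GAPDH samples the calls at 1 dpn against 94 dpc were the same. At 28 dpn 0 were then higher than at 1 dpn, and the same 2 were lower. HSPA8, the constitutive cytosolic HSP70 that also uncoats clathrin vesicles, had 13337, 12113, 12872, 10557 and 9817 at 94 dpc and 14175 to 26806 (median 18182) at 1 dpn. The signals were 17978 to 24230.1 (median 20369.7) at 28 dpn and 22083 to 30251 (median 24914) at 188 dpn. Every sample after birth lay above every sample at 94 dpc. HSPA8 was 1.64-fold higher at 1 dpn (log2 change 0.71 ± 0.18, adjusted p = 0.00417) and 2.16-fold higher at 188 dpn (log2 change 1.11 ± 0.18, adjusted p = 2.36e-05) than at 94 dpc, and did not pass the test at 28 dpn against 1 dpn (0.10 ± 0.17) or at 188 dpn against 28 dpn (0.29 ± 0.17). Its rise by 1 dpn held without the low-GAPDH samples (0.75, adjusted p = 0.00506).

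The other 3 HSPA8 probe sets went the other way. With means of 51.8 to 128 at 188 dpn and 98.7 to 230.4 at 94 dpc, they were lower at 188 dpn than at 94 dpc (log2 changes of -0.90, -1.33 and -0.88, adjusted p = 0.0104, 0.000564 and 0.0406). The mean of all 4 was lower too (-0.50, adjusted p = 0.0207), and after quantile normalization the rise by 1 dpn was 0.22 (adjusted p = 0.4).

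HSPA6, a strictly inducible cytosolic HSP70 in human cells, had 120.2, 93.3, 91.3, 67.1 and 133 at 94 dpc and 4.36 to 160.3 (median 89.3) at 1 dpn. The signals at 28 dpn were 123 to 256 (median 183), and those at 188 dpn 199 to 908 (median 557). The 188 dpn samples were spread out, with 199 and 207 in replicates 1 and 2 and 459.6 to 908 in the other 4. HSPA6 was 4.11-fold higher at 188 dpn than at 94 dpc with no overlap (log2 change 2.04 ± 0.44, adjusted p = 0.000625), and higher at 28 dpn than at 1 dpn (log2 change 1.22 ± 0.42, adjusted p = 0.0463). The call at 28 dpn against 1 dpn was lost in 8 of the 12 fits without 1 sample (adjusted p = 0.0587 to 0.122) and without the low-GAPDH samples (adjusted p = 0.182), one of which, replicate 4, held the low value of 4.36. The difference of 188 dpn from 28 dpn, of similar size (1.23 ± 0.42), missed the threshold (adjusted p = 0.0508) and passed it after quantile normalization (adjusted p = 0.0359) and without 188 dpn replicate 1 or 2 (adjusted p = 0.0223 to 0.0259).

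**Figure D3:**
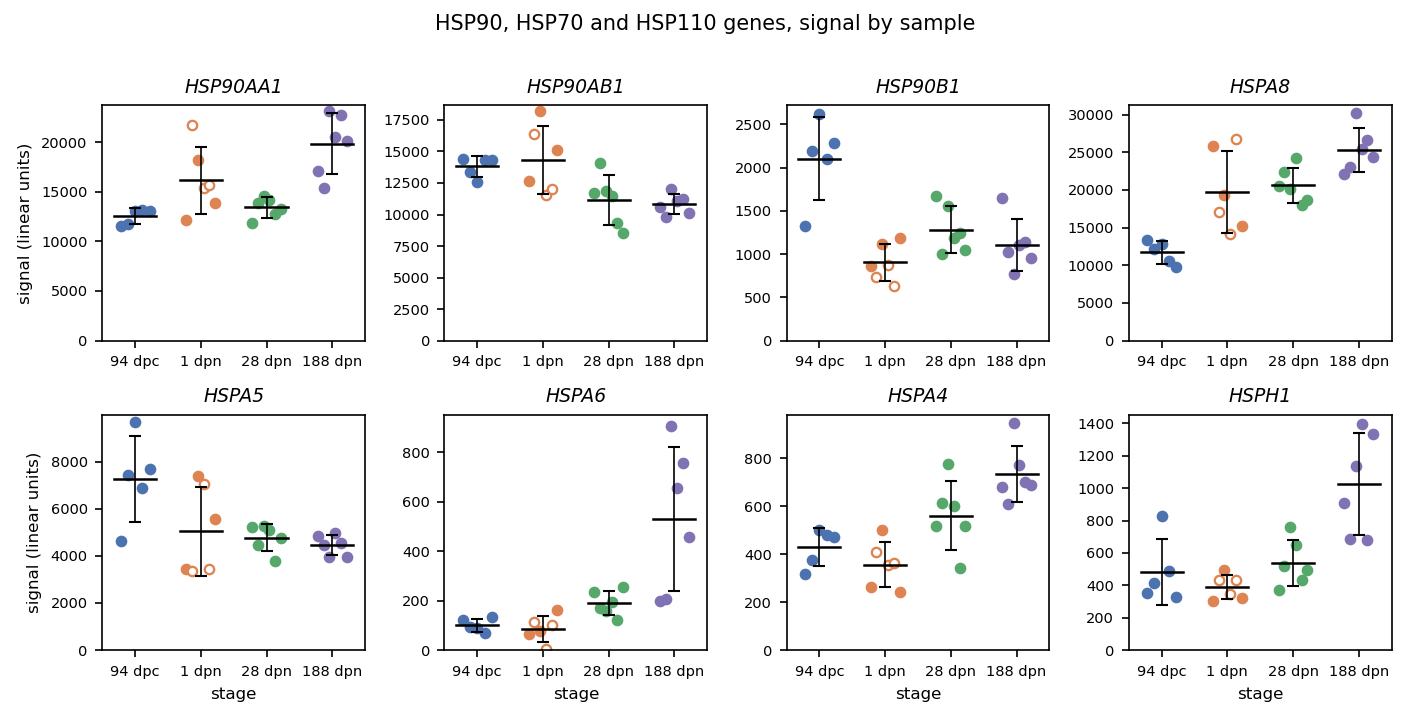
Signal (linear units) of 3 HSP90 genes, 4 HSP70 genes and HSPH1 by stage, each point 1 sample, with the mean and SD as black lines and open points for the 3 samples of 1 dpn with a low GAPDH ratio. HSP90B1 is highest at 94 dpc, HSPA8 is lowest there, and HSPA6, HSPA4 and HSPH1 have their highest means at 188 dpn.

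HSPA4 and HSPH1, HSP110-type proteins that exchange the nucleotide of HSP70, were both higher at 188 dpn than at 94 dpc. HSPA4 had 317, 374, 500.0, 479 and 472 at 94 dpc and 244 to 502 (median 360.2) at 1 dpn. It had 341 to 777 (median 559) at 28 dpn and 611 to 947 (median 694) at 188 dpn. HSPH1 had 354, 413, 829, 488 and 328 at 94 dpc and 302 to 494 (median 391) at 1 dpn. Later it had 370.0 to 761 (median 508) at 28 dpn and 677 to 1398 (median 1023) at 188 dpn. For HSPA4 no sample at 188 dpn overlapped those at 94 dpc (log2 change 0.76 ± 0.21, adjusted p = 0.00595), and for HSPH1 the 94 dpc replicate 3, at 829, lay among the 188 dpn samples (log2 change 1.08 ± 0.25, adjusted p = 0.00135). HSPH1 was also higher at 188 dpn than at 28 dpn (log2 change 0.89 ± 0.24, adjusted p = 0.0137). HSPA4 was higher at 28 dpn than at 1 dpn (log2 change 0.63 ± 0.20, adjusted p = 0.0326), a call lost in 6 of the 12 fits without 1 sample (adjusted p = 0.0504 to 0.0858), lost without the low-GAPDH samples (adjusted p = 0.0544) and turned to -0.25 with the mean of its 3 probe sets (adjusted p = 0.325).

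Other HSP70 genes were lower after birth or passed fewer tests. HSPA13, a microsomal HSP70 relative, had 215, 408, 394, 309 and 428 at 94 dpc and 76 to 234 (median 192) at 1 dpn. Signals of 98.1 to 211 (median 136) followed at 28 dpn and 109 to 237 (median 136) at 188 dpn. Only 94 dpc replicate 1 overlapped the samples after birth. It was 2.01-fold lower at 1 dpn (log2 change -1.005 ± 0.26, adjusted p = 0.00585) and 2.21-fold lower at 188 dpn (log2 change -1.15 ± 0.26, adjusted p = 0.00115) than at 94 dpc, and the first was not called after quantile normalization (adjusted p = 0.0673) or with the mean of its probe sets (adjusted p = 0.425), but was without the low-GAPDH samples (-1.32, adjusted p = 0.00317). HSPA5 (BiP), the HSP70 of the endoplasmic reticulum, averaged 4449 ± 430.2 at 188 dpn and 7262 ± 1816 at 94 dpc (SD, n = 6 and 5; log2 change -0.67 ± 0.22, adjusted p = 0.021), a call lost without 94 dpc replicate 3 (adjusted p = 0.0724). HSPA14, a ribosome-associated HSP70, was lower at 188 dpn than at 94 dpc (log2 change -0.67 ± 0.25, adjusted p = 0.0366), a call lost in 7 of the 11 fits without 1 sample (adjusted p = 0.0503 to 0.0991). HSPA2, best known from the testis, had its highest mean at 1 dpn, 428 ± 132, and was lower at 28 dpn, 209 ± 86.6 (log2 change -1.001 ± 0.24, adjusted p = 0.00546, and -0.98, adjusted p = 0.0359 without the low-GAPDH samples). HSPA12A, a distant relative, had stage means of 48.6, 60.4, 108 and 92.6, and its call at 188 dpn against 94 dpc (log2 change 0.97 ± 0.37, adjusted p = 0.0458) was lost in 8 of the 11 fits without 1 sample (adjusted p = 0.0622 to 0.197). Of 7 other co-chaperones of HSP70, 2 were higher at 1 dpn than at 94 dpc (28.6%, against 13.7% of all genes). At 28 dpn 3 were lower than at 1 dpn (42.9%, against 10.7%), and at 188 dpn 3 were higher than at 28 dpn (42.9%, against 5.79%). At 188 dpn 3 were higher and 1 lower than at 94 dpc (42.9% and 14.3%, against 19.5% and 27.6%). Several of these calls were lost when samples were left out. The 3 falls at 28 dpn, of BAG3, BAG6 and HYOU1, were lost without the low-GAPDH samples, when GRPEL1 was lower instead, and also that of BAG6 was lost in 8 of the 12 fits without 1 sample (adjusted p = 0.0603 to 0.0981) and that of HYOU1 lost in 8 of the 12 fits without 1 sample (adjusted p = 0.057 to 0.116). At 1 dpn against 94 dpc 3 were higher without the low-GAPDH samples, 2 of them those called with all samples, and 1 was lower. The rises at 188 dpn over 28 dpn numbered 1 or 2 in each of the 12 fits without 1 sample, since that of BAG1 was lost in 12 of the 12 fits without 1 sample (adjusted p = 0.0533 to 0.0964) and that of BAG6 lost in 9 of the 12 fits without 1 sample (adjusted p = 0.0685 to 0.0975). With all samples these rises of BAG1 and BAG6 stood near the threshold (limma, adjusted p = 0.0451 and 0.045). The BAG1 signals of the 2 stages did not overlap. BAG6 at 188 dpn against 94 dpc was lost in 8 of the 11 fits without 1 sample (adjusted p = 0.0523 to 0.0978).

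The mitochondrial chaperone genes had their highest means at 1 dpn. HSPE1, the lid of the mitochondrial chaperonin, had 15491, 18569, 16071, 17072 and 15393 at 94 dpc and 21682 to 38390.5 (median 27496) at 1 dpn. The 28 dpn samples had 9494 to 15154 (median 12321) and the 188 dpn samples 12790.2 to 17789 (median 13176). All 1 dpn samples lay above all samples of the other stages. HSPE1 was 1.7-fold higher at 1 dpn than at 94 dpc (log2 change 0.76 ± 0.18, adjusted p = 0.00257) and 2.32-fold lower at 28 dpn than at 1 dpn (log2 change -1.21 ± 0.17, adjusted p = 3.16e-05). The rise was not called after quantile normalization (0.20, adjusted p = 0.529), whereas the fall was. Both were called without the low-GAPDH samples, the rise closer to the threshold (0.54, adjusted p = 0.0419, and -0.99, adjusted p = 0.00123).

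HSPD1, the ring subunit that HSPE1 closes, had 3467, 4955, 5605, 3984 and 4724 at 94 dpc and 3854 to 16864 (median 8611) at 1 dpn. At 28 dpn it had 3384 to 6429 (median 5137), and at 188 dpn 3287 to 4868 (median 4187). The signals of 16104 and 16864 in 1 dpn replicates 4 and 5, which have low GAPDH ratios, stood above all others, and replicate 6, at 3854, lay below the mean at 94 dpc. HSPD1 was 1.92-fold higher at 1 dpn than at 94 dpc (log2 change 0.94 ± 0.30, adjusted p = 0.0209) and 1.79-fold lower at 28 dpn than at 1 dpn (log2 change -0.84 ± 0.28, adjusted p = 0.043). Without the low-GAPDH samples neither was called (log2 changes of 0.39 and -0.29, adjusted p = 0.32 and 0.537). The rise was also lost without 94 dpc replicate 1, 1 dpn replicate 4 or 1 dpn replicate 5 (adjusted p = 0.0551 to 0.057), and the fall lost in 9 of the 12 fits without 1 sample (adjusted p = 0.0508 to 0.119).

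HSPA9 (mortalin), the HSP70 that pulls proteins into the mitochondrial matrix, had 5033, 4926, 5413, 5504 and 5854 at 94 dpc and 11456 to 21816 (median 14872) at 1 dpn. The signals were 7532 to 11042 (median 8315) at 28 dpn and 5614 to 10294 (median 7108) at 188 dpn. All 1 dpn samples lay above all samples of the other stages. The mean was 15374 ± 3774 at 1 dpn and 5346 ± 375 at 94 dpc (SD, n = 6 and 5), 2.81-fold higher (log2 change 1.49 ± 0.19, adjusted p = 3.39e-06), and 28 dpn was 1.76-fold lower than 1 dpn (log2 change -0.82 ± 0.18, adjusted p = 0.00228). These calls held without the low-GAPDH samples (1.32, adjusted p = 8.18e-05, and -0.65, adjusted p = 0.0301). DNAJA3, its J-domain partner in the matrix, had 942, 622, 757, 646 and 886 at 94 dpc and 1311 to 4835 (median 2041) at 1 dpn. The signals at 28 dpn were 1051 to 1603 (median 1212), and those at 188 dpn 734 to 1504 (median 1053). The 3 low-GAPDH samples held its highest signals, 2388 to 4835, against 1311 to 1693 in the other 1 dpn samples. DNAJA3 was 2.81-fold higher at 1 dpn than at 94 dpc (log2 change 1.49 ± 0.27, adjusted p = 0.000256), which was called without these samples too (0.93, adjusted p = 0.0055), and lower at 28 dpn than at 1 dpn (log2 change -0.77 ± 0.26, adjusted p = 0.0441), which was not called without them (-0.20, adjusted p = 0.632) and was lost in 7 of the 12 fits without 1 sample (adjusted p = 0.0708 to 0.116).

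DNAJC19, the J-domain subunit of the inner membrane import motor, had 883, 1058, 1083, 1026 and 1180.4 at 94 dpc and 1321 to 2703 (median 2175) at 1 dpn. It had 1192 to 2238 (median 1941) at 28 dpn and 914 to 1352 (median 1119.7) at 188 dpn. The 1 dpn samples lay above all 94 dpc samples. DNAJC19 was 1.94-fold higher at 1 dpn than at 94 dpc (log2 change 0.96 ± 0.20, adjusted p = 0.000835) and 1.55-fold lower at 188 dpn than at 28 dpn (log2 change -0.63 ± 0.19, adjusted p = 0.0259), the second a call lost in 7 of the 12 fits without 1 sample (adjusted p = 0.0512 to 0.0643). The rise held without the low-GAPDH samples (0.76, adjusted p = 0.0176). DNAJC11, which belongs to the cristae-organising machinery, passed no test, with stage means of 525, 734, 511 and 532, but without 1 dpn replicate 2 was called at 1 dpn against 94 dpc and at 28 dpn against 1 dpn (adjusted p = 0.045 and 0.0473). Among 5 other mitochondrial folding and protease genes, 3 were higher at 1 dpn than at 94 dpc (60%, against 13.7% of all genes). At 28 dpn 1 was higher and 2 were lower than at 1 dpn (20% and 40%, against 13.5% and 10.7%). At 188 dpn 2 were higher than at 94 dpc (40%, against 19.5%). Left without the low-GAPDH samples, 2 of the 3 rises at 1 dpn remained called, CLPB being lost (adjusted p = 0.0554), and the calls at 28 dpn were those of all samples. TIMM44, which anchors HSPA9 at the import channel, was 2.58-fold higher at 1 dpn than at 94 dpc (log2 change 1.37 ± 0.23, adjusted p = 8.58e-05) and 1.85-fold lower at 28 dpn than at 1 dpn (log2 change -0.89 ± 0.22, adjusted p = 0.00573). YME1L1, an inner membrane protease, went the other way at 28 dpn (log2 change 1.45 ± 0.18, adjusted p = 6.97e-06). In the fit without the low-GAPDH samples the changes of TIMM44 were 1.605 and -1.12 (adjusted p = 5.62e-05 and 0.00242) and that of YME1L1 1.41 (adjusted p = 0.000169).

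**Figure D4:**
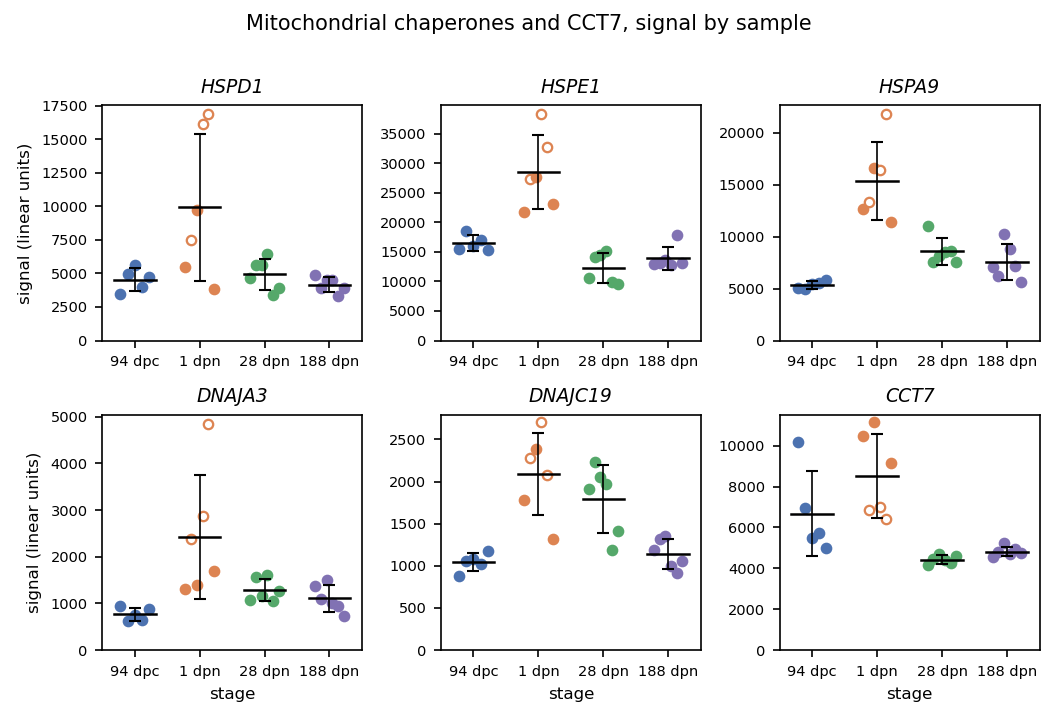
Signal (linear units) of 5 mitochondrial chaperone genes and of CCT7 by stage, each point 1 sample, with the mean and SD as black lines and open points for the 3 samples of 1 dpn with a low GAPDH ratio. HSPE1 and HSPA9 stand above all other stages at 1 dpn in each sample, while open points carry the highest HSPD1 and DNAJA3 signals.

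CCT, the cytosolic chaperonin, folds actin and tubulin. Of its 5 measured subunits 1 was higher at 1 dpn than at 94 dpc (20%, against 13.7% of all genes). At 28 dpn 2 were lower than at 1 dpn (40%, against 10.7%). At 188 dpn 2 were higher and 1 lower than at 94 dpc (40% and 20%, against 19.5% and 27.6%). Without the low-GAPDH samples 1 was higher at 1 dpn, but another gene, and 1 of the 2 was lower at 28 dpn. CCT7 had 10172, 6956, 5476, 5729 and 5016 at 94 dpc and 6404 to 11165 (median 8073) at 1 dpn. Later it had 4139 to 4687 (median 4434) at 28 dpn and 4536 to 5224 (median 4761) at 188 dpn. All 28 dpn samples lay below all 1 dpn samples, and CCT7 was 1.87-fold lower (log2 change -0.91 ± 0.18, adjusted p = 0.000865, and -1.21, adjusted p = 0.000228 without the low-GAPDH samples). Without these samples, which held its lowest 1 dpn signals, it was also higher at 1 dpn than at 94 dpc (0.67, adjusted p = 0.0133). CCT2 was also lower at 28 dpn than at 1 dpn (log2 change -0.65 ± 0.16, adjusted p = 0.00736, not called without the low-GAPDH samples, adjusted p = 0.104) and lower at 188 dpn than at 94 dpc with no overlap (log2 change -0.56 ± 0.17, adjusted p = 0.0126). CCT6A had 803, 1227, 1141, 1017 and 1185 at 94 dpc and 945 to 2796 (median 2199.9) at 1 dpn. Signals of 1229 to 2487 (median 2121) followed at 28 dpn and 1463 to 1990.3 (median 1646) at 188 dpn. It was higher at 1 dpn than at 94 dpc (log2 change 0.82 ± 0.25, adjusted p = 0.0163), with overlap through 1 dpn replicate 6 and no call without the low-GAPDH samples (adjusted p = 0.212). At 188 dpn it exceeded every 94 dpc sample (log2 change 0.65 ± 0.25, adjusted p = 0.0427), a call lost in 8 of the 11 fits without 1 sample (adjusted p = 0.0534 to 0.113). CCT4 was called at 188 dpn against 94 dpc (log2 change 0.44 ± 0.17, adjusted p = 0.0484), lost in 8 of the 11 fits without 1 sample (adjusted p = 0.0596 to 0.142), and CCT8, with stage means of 2185, 1807, 1822 and 2089.7, in no comparison, although without 1 dpn replicate 3 it was called at 1 dpn against 94 dpc (adjusted p = 0.0159). Of 12 prefoldin and chaperonin-assisting genes, 1 was higher and 2 lower at 1 dpn than at 94 dpc. These were 8.33% and 16.7%, against 13.7% and 19.5% of all genes. At 28 dpn 3 were higher than at 1 dpn (25%, against 13.5%). At 188 dpn against 28 dpn none was called by limma (2 at an unadjusted p under 0.05). At 188 dpn 2 were higher and 2 lower than at 94 dpc (16.7% each, against 19.5% and 27.6%). In the fit without the low-GAPDH samples 2 were higher and 1 lower at 1 dpn than at 94 dpc, PFDN5 being newly higher and TBCD no longer called, and 2 of the 3 were higher at 28 dpn than at 1 dpn. TBCA, a tubulin folding cofactor, was 1.92-fold lower at 188 dpn than at 94 dpc (log2 change -0.94 ± 0.16, adjusted p = 5.34e-05).

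J-domain proteins choose the clients of HSP70 and start its ATPase cycle. Among the DNAJA genes other than the mitochondrial DNAJA3, DNAJA4 and DNAJA2 ran in opposite directions after 1 dpn. DNAJA4 had 1859, 1792, 1448, 1585 and 1197 at 94 dpc and 1903 to 5671 (median 3983) at 1 dpn. The 28 dpn samples had 674 to 1732 (median 1219) and the 188 dpn samples 356 to 711 (median 552). Every 1 dpn sample lay above every sample of the other stages, and every 188 dpn sample below all at 94 dpc and 1 dpn. It was 2.47-fold higher at 1 dpn than at 94 dpc (log2 change 1.30 ± 0.29, adjusted p = 0.00149), 3.49-fold lower at 28 dpn than at 1 dpn (log2 change -1.80 ± 0.27, adjusted p = 7.3e-05), 2.04-fold lower at 188 dpn than at 28 dpn (log2 change -1.03 ± 0.27, adjusted p = 0.0129) and 2.88-fold lower at 188 dpn than at 94 dpc (log2 change -1.53 ± 0.29, adjusted p = 0.000157). Those that involve 1 dpn were called without the low-GAPDH samples (1.30, adjusted p = 0.0123, and -1.80, adjusted p = 0.002). The fall at 188 dpn against 28 dpn was not called with the mean of its probe sets (-0.38, adjusted p = 0.19).

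DNAJA2 had 518, 542, 595, 448 and 509 at 94 dpc and 552 to 1145 (median 715) at 1 dpn. At 28 dpn it had 1069 to 1425 (median 1248), and at 188 dpn 1366 to 1785 (median 1726). All 188 dpn and all 28 dpn samples lay above all 94 dpc samples. DNAJA2 was 3.07-fold higher at 188 dpn than at 94 dpc (log2 change 1.62 ± 0.17, adjusted p = 8.93e-08) and 1.66-fold higher at 28 dpn than at 1 dpn (log2 change 0.73 ± 0.17, adjusted p = 0.00335, and 0.87, adjusted p = 0.0011 without the low-GAPDH samples), and its rise at 1 dpn (log2 change 0.48 ± 0.17, adjusted p = 0.0457) was lost in 8 of the 11 fits without 1 sample (adjusted p = 0.0518 to 0.112) and without the low-GAPDH samples (adjusted p = 0.138). DNAJA1 averaged 1317 ± 459 at 1 dpn and 2183 ± 292 at 94 dpc (SD, n = 6 and 5) and was lower at 1 dpn (log2 change -0.80 ± 0.26, adjusted p = 0.025), a call lost without 94 dpc replicate 1, 94 dpc replicate 3 or 1 dpn replicate 4 (adjusted p = 0.0503 to 0.0663) and without the low-GAPDH samples together (adjusted p = 0.322).

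Of the 7 DNAJB genes, 1 was higher at 1 dpn than at 94 dpc (14.3%, against 13.7% of all genes). At 28 dpn 1 was higher and 1 lower than at 1 dpn (14.3% each, against 13.5% and 10.7%). At 188 dpn 3 were higher than at 28 dpn (42.9%, against 5.79%) and 4 higher than at 94 dpc (57.1%, against 19.5%). Without the low-GAPDH samples the calls that involve 1 dpn stayed, and DNAJB14 was newly lower at 1 dpn than at 94 dpc. DNAJB6, a J-domain protein of the sarcomere's Z-disc whose human mutations cause a limb-girdle muscular dystrophy, had 1110.1, 1202, 1035, 1117 and 1239 at 94 dpc and 2057 to 14944 (median 4631) at 1 dpn. The signals were 1452 to 2151 (median 1747) at 28 dpn and 3034 to 5041 (median 3855) at 188 dpn. The 94 dpc samples lay in a narrow band below all others, and 1 dpn replicate 2, a low-GAPDH sample, held the highest signal. DNAJB6 was 4.1-fold higher at 1 dpn than at 94 dpc (log2 change 2.04 ± 0.31, adjusted p = 3.79e-05), 2.67-fold lower at 28 dpn than at 1 dpn (log2 change -1.41 ± 0.30, adjusted p = 0.0018) and 2.16-fold higher at 188 dpn than at 28 dpn (log2 change 1.11 ± 0.30, adjusted p = 0.0133). At 188 dpn against 94 dpc the rise was 3.32-fold (log2 change 1.73 ± 0.31, adjusted p = 9.68e-05). Without the low-GAPDH samples the first changes were 1.38 and -0.76, both still called (adjusted p = 0.000119 and 0.0207). With the GAPDH ratio as a covariate the fall at 28 dpn was not called (-0.67, adjusted p = 0.111). None of its other 3 probe sets was called at 1 dpn against 94 dpc, where their log2 changes were -0.03, 0.61 and -0.67.

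DNAJB2, a J-domain protein with ubiquitin-binding motifs, and DNAJB9, which assists HSPA5 in the endoplasmic reticulum, stood out at 188 dpn. DNAJB2 had 564, 379, 345, 531 and 384 at 94 dpc and 187 to 797 (median 275) at 1 dpn. The signals at 28 dpn were 223 to 436 (median 272), and those at 188 dpn 804 to 1179 (median 868). DNAJB9 had 498, 578, 657, 388 and 380.4 at 94 dpc and 295 to 1006 (median 596) at 1 dpn. It had 470.1 to 648 (median 581) at 28 dpn and 1141 to 2027 (median 1514) at 188 dpn. For both genes every 188 dpn sample lay above every sample of the other stages. At 188 dpn DNAJB2 was 3.13-fold higher than at 28 dpn (log2 change 1.65 ± 0.26, adjusted p = 0.000157) and DNAJB9 2.63-fold higher (log2 change 1.40 ± 0.23, adjusted p = 0.000195), and against 94 dpc their log2 changes were 1.08 ± 0.28 and 1.61 ± 0.24 (adjusted p = 0.00314 and 9.52e-06).

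DNAJB14, an endoplasmic reticulum J-domain protein, had 67.1, 102, 135, 72.4 and 124 at 94 dpc and 21.5 to 137 (median 65.4) at 1 dpn. It had 116 to 185 (median 143) at 28 dpn and 73.4 to 142 (median 113) at 188 dpn. DNAJB14 was 1.98-fold higher at 28 dpn, 145 ± 26.8, than at 1 dpn, 71.3 ± 38.5 (SD, n = 6 each; log2 change 0.99 ± 0.25, adjusted p = 0.008). Without the low-GAPDH samples this change was 1.37 (adjusted p = 0.00163), and it was also lower at 1 dpn than at 94 dpc (-0.87, adjusted p = 0.022). DNAJB1, the classic heat-inducible partner of HSP70, passed no test, with stage means of 812, 597, 604 and 699, and neither did DNAJB11, a secreted and endoplasmic reticulum form, with 295, 201, 194 and 286. DNAJB4, known from heart and muscle, was called at 188 dpn against 94 dpc (log2 change 0.87 ± 0.31, adjusted p = 0.032), a call lost in 7 of the 11 fits without 1 sample (adjusted p = 0.055 to 0.0807).

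**Figure D5:**
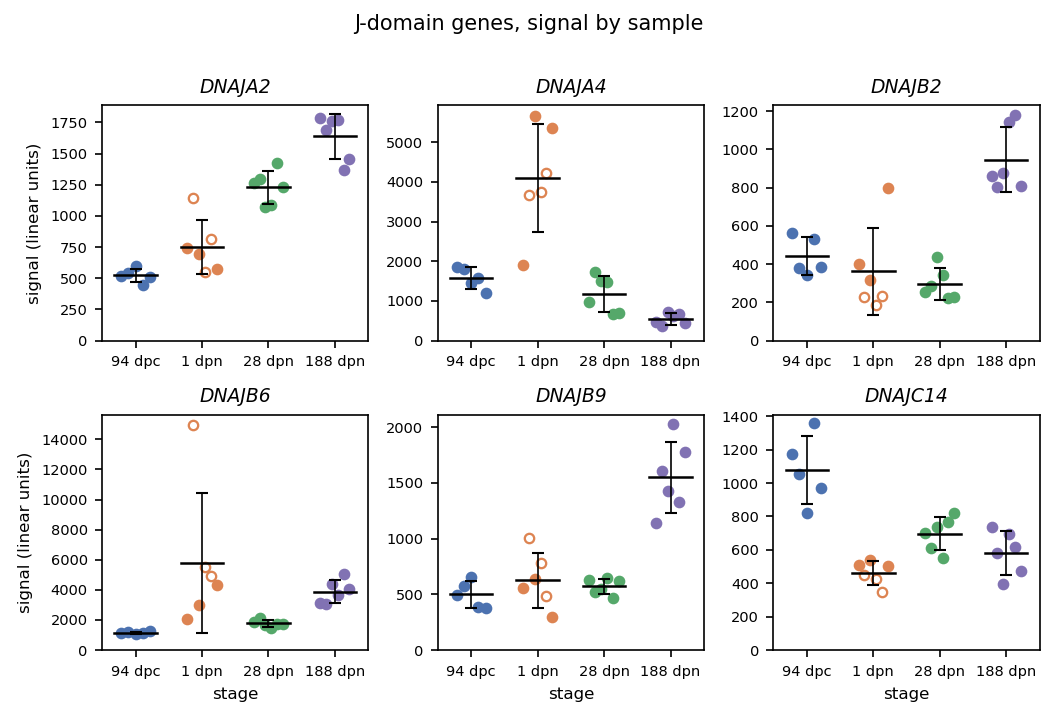
Signal (linear units) of 6 J-domain genes by stage, each point 1 sample, with the mean and SD as black lines and open points for the 3 samples of 1 dpn with a low GAPDH ratio. DNAJA4 lies at 711 or lower in every 188 dpn sample, where DNAJA2, DNAJB2 and DNAJB9 have their highest means.

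The 11 DNAJC genes serve particular processes. At 1 dpn 3 were higher and 2 lower than at 94 dpc (27.3% and 18.2%, against 13.7% and 19.5% of all genes). Without the low-GAPDH samples 3 were higher, 2 of them those of all samples, and 1 of the 2 was lower. At 188 dpn 2 were higher and 3 lower than at 94 dpc. These were 18.2% and 27.3%, close to the 19.5% and 27.6% of all genes. DNAJC14, an endoplasmic reticulum J-domain protein, had 1175, 1055, 819, 1359 and 973 at 94 dpc and 348 to 538 (median 477) at 1 dpn. Later it had 554 to 819 (median 718) at 28 dpn and 394 to 735 (median 599) at 188 dpn. The 94 dpc samples did not overlap those of 1 dpn or 188 dpn. It was 2.28-fold lower at 1 dpn (log2 change -1.19 ± 0.19, adjusted p = 4.54e-05) and 1.84-fold lower at 188 dpn (log2 change -0.88 ± 0.19, adjusted p = 0.000519) than at 94 dpc, and higher at 28 dpn than at 1 dpn (log2 change 0.58 ± 0.18, adjusted p = 0.0249), the last lost without 1 dpn replicate 5, 28 dpn replicate 5 or 28 dpn replicate 6 (adjusted p = 0.0518 to 0.0615) and without the low-GAPDH samples (adjusted p = 0.213). Its fall by 1 dpn held without them (-1.02, adjusted p = 0.00138). DNAJC24, which takes part in making the diphthamide of elongation factor EEF2, had 95.4, 144, 189, 110.4 and 191 at 94 dpc and 214 to 779.7 (median 353) at 1 dpn. Signals of 180.1 to 266 (median 219) followed at 28 dpn and 220.0 to 311 (median 269) at 188 dpn. The 1 dpn samples lay above all 94 dpc samples (log2 change 1.41 ± 0.27, adjusted p = 0.000424, and 1.09, adjusted p = 0.000817 without the low-GAPDH samples), and the fall at 28 dpn (log2 change -0.81 ± 0.26, adjusted p = 0.0337) was lost in 6 of the 12 fits without 1 sample (adjusted p = 0.0548 to 0.0963) and without the low-GAPDH samples (adjusted p = 0.134). It was higher at 188 dpn than at 94 dpc as well (log2 change 0.84 ± 0.27, adjusted p = 0.0169), lost without 94 dpc replicate 1 (adjusted p = 0.0556).

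DNAJC9, a histone co-chaperone, had 121, 138, 147, 113 and 178 at 94 dpc and 11.8 to 114 (median 50.3) at 1 dpn. The 28 dpn samples had 29.4 to 84.9 (median 61.6) and the 188 dpn samples 71.3 to 178 (median 114). It was 2.53-fold lower at 1 dpn than at 94 dpc (log2 change -1.34 ± 0.36, adjusted p = 0.0072), but the signals at 1 dpn ran from 11.8 to 114 and the call did not hold without the low-GAPDH samples (adjusted p = 0.0874). Of 15 cell cycle genes measured beside it, 11 were lower at 1 dpn than at 94 dpc (73.3%, against 19.5% of all genes). Without the low-GAPDH samples 10 were lower, 9 of them among the 11, and 1 was higher. Their part in the DNAJC9 result was not tested. DNAJC5, the cysteine string protein of secretory vesicles, was higher at 188 dpn than at 94 dpc with no overlap (log2 change 0.66 ± 0.25, adjusted p = 0.0378), a call lost in 7 of the 11 fits without 1 sample (adjusted p = 0.0501 to 0.101), and at 1 dpn the low-GAPDH samples held its lowest signals. Without them it was higher at 1 dpn than at 94 dpc (1.26, adjusted p = 9.17e-05) and lower at 28 dpn than at 1 dpn (-0.59, adjusted p = 0.0409). DNAJC6 (auxilin), with stage means of 36.8, 81.8, 44.9 and 59.5, was higher at 1 dpn than at 94 dpc (log2 change 0.98 ± 0.31, adjusted p = 0.0211), a call lost without 94 dpc replicate 2 or 94 dpc replicate 3 (adjusted p = 0.058 to 0.0865) and without the low-GAPDH samples (adjusted p = 0.134). DNAJC8 and DNAJC17, linked to pre-mRNA splicing, were lower at 188 dpn than at 94 dpc. The call of DNAJC8 (log2 change -0.45 ± 0.17, adjusted p = 0.0448) was lost in 8 of the 11 fits without 1 sample (adjusted p = 0.0589 to 0.154). That of DNAJC17 (log2 change -0.44 ± 0.16, adjusted p = 0.0356) was lost in 7 of the 11 fits without 1 sample (adjusted p = 0.0524 to 0.0816). DNAJC2, the ribosome-associated partner of HSPA14, was called over the 4 stages together and in none of the 4 comparisons by limma, and DNAJC3, an inhibitor of the kinase EIF2AK2, passed no test, with stage means of 105, 65.5, 74 and 61.8.

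HSPB11 and HSPBP1 were described apart because their products are no small heat shock proteins. HSPB11 had 541, 452, 575, 636 and 489 at 94 dpc and 479 to 1455 (median 1156) at 1 dpn. At 28 dpn it had 250.3 to 516 (median 361), and at 188 dpn 159 to 271 (median 236). Apart from replicate 1, every 1 dpn sample lay above every other sample of the series, and every 188 dpn sample lay below all at 94 dpc. It was 2.64-fold lower at 28 dpn than at 1 dpn (log2 change -1.40 ± 0.23, adjusted p = 0.000148, and -1.28, adjusted p = 0.00533 without the low-GAPDH samples) and 2.32-fold lower at 188 dpn than at 94 dpc (log2 change -1.22 ± 0.24, adjusted p = 0.000249), while its rise by 1 dpn (log2 change 0.93 ± 0.24, adjusted p = 0.00526) missed the threshold without the low-GAPDH samples (adjusted p = 0.0526). Its further fall at 188 dpn against 28 dpn (log2 change -0.74 ± 0.23, adjusted p = 0.0301) was lost without 28 dpn replicate 1, 28 dpn replicate 2, 188 dpn replicate 2 or 188 dpn replicate 5 (adjusted p = 0.0655 to 0.0742). HSPBP1 passed no test, with stage means of 276, 381, 231 and 283, but without the low-GAPDH samples it was higher at 1 dpn than at 94 dpc (0.92, adjusted p = 0.0345) and lower at 28 dpn than at 1 dpn (-1.13, adjusted p = 0.0161).

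Genes of protein folding in the endoplasmic reticulum and of the unfolded protein response were taken as a list beside HSPA5, HSP90B1, DNAJB9, DNAJB11 and DNAJC3. Of 16 measured, 1 was higher and 6 lower at 1 dpn than at 94 dpc. These were 6.25% and 37.5%, against 13.7% and 19.5% of all genes. The rise was that of SDF2L1, with low means of 153 ± 45.0 at 1 dpn and 18.3 ± 8.74 at 94 dpc (SD). It had no overlap (log2 change 2.29 ± 0.43, adjusted p = 0.000328) and was called without the low-GAPDH samples too. At 28 dpn 3 of the 16 were higher and 2 lower than at 1 dpn (18.75% and 12.5%, against 13.5% and 10.7%). At 188 dpn 1 was higher and 3 lower than at 28 dpn (6.25% and 18.75%, against 5.79% and 12.5%). Against 94 dpc, 2 were higher and 10 lower at 188 dpn (12.5% and 62.5%, against 19.5% and 27.6%). The fit without the low-GAPDH samples gave 1 higher and 5 lower at 1 dpn than at 94 dpc, 4 of the 5 among the 6, since ERP29 and XBP1 were lost and CANX was newly called. At 28 dpn against 1 dpn it gave 2 higher, both among the 3, and 1 lower, MANF (-1.13, adjusted p = 9.46e-05), while the rise of PDIA3 and the falls of SDF2L1 and PDIA4 were lost. Leaving out single samples, the number lower at 188 dpn than at 28 dpn ran from 0 to 3, through SERPINH1 and PDIA6 (each lost in 5 of 12 fits) and PDIA3 (in 2 of 12). SERPINH1, the collagen chaperone HSP47, averaged 768 ± 40.6 at 188 dpn and 3844 ± 331 at 94 dpc (SD, n = 6 and 5) and was 4.91-fold lower (log2 change -2.30 ± 0.29, adjusted p = 1.06e-06). FKBP14, a prolyl isomerase that acts on collagen, was 4.73-fold lower (log2 change -2.24 ± 0.26, adjusted p = 2.56e-07). Fibroblast markers moved beside them, with 6 of 7 lower at 1 dpn than at 94 dpc and 6 of 7 lower at 188 dpn than at 94 dpc. These were 85.7% each, against 19.5% and 27.6% of all genes, and without the low-GAPDH samples the same 6 were lower at 1 dpn. Endothelial markers moved as well, with 5 of 7 lower at 1 dpn than at 94 dpc (the same 5 without the low-GAPDH samples). At 28 dpn 5 of 7 were higher than at 1 dpn (3 without the low-GAPDH samples). At 188 dpn 4 of 7 were lower than at 28 dpn and 5 of 7 lower than at 94 dpc. These were 71.4%, 71.4%, 57.1% and 71.4%, against 19.5%, 13.5%, 12.5% and 27.6% of all genes. The part of either marker list in the fall of SERPINH1, FKBP14 and HSP90B1, or in other chaperone results, was not tested. ATF4, a transcription factor of the integrated stress response, went the other way and averaged 67954 ± 4250.0 at 188 dpn and 7128 ± 517 at 94 dpc, 9.52-fold higher (log2 change 3.25 ± 0.18, adjusted p = 5.48e-12).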

How the data were processed

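Total RNA of 23 samples was hybridised to a porcine expression array, 1 array a sample. The deposited values are linear signal intensities, 1 a probe set, which the authors scaled so that the trimmed mean of each array is 500.1 to 500.2, as the values show. Per the submitters' processing notes the software was GCOS 1.1.1; how background was corrected and probes were summarised is not given in the sources used here. No detection calls, scan dates or batches were used.

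Of 24123 probe sets, 124 controls were left out. Probe sets were named through GEO's platform annotation (10069 with 1 symbol, 198 with several, 13732 with none), and a gene was represented by its probe set of highest mean over all samples. Of the 49 chaperone genes, 48 matched the RefSeq table of Sscrofa11.1 by Entrez ID. Signals were tested as log2(signal + 16), without a filter, by limma 3.58.1 in R 4.3.3 (lmFit and eBayes, 1 mean a stage over all samples, two-sided), with Benjamini-Hochberg adjustment over 23999 probe sets and a threshold of 0.05. Fold changes on this scale understate the change of low signals. Tables and figures were made with Python 3.11.15, pandas 2.3.3 and matplotlib 3.10.9. No depth applies to arrays, and the number of samples limits the precision.

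On simulated data the fit recovered, of 100 probe sets changed by 1 on the log2 scale, 24 for 1 dpn against 94 dpc, 44 for 28 dpn against 1 dpn, 41 for 188 dpn against 28 dpn and 39 for 188 dpn against 94 dpc. Of 100 changed by 2 it recovered 82, 92, 88 and 85 in the same order, with 5, 7, 17 and 4 false calls among the unchanged of the 23999. In each simulation only these 2 sets of 100 probe sets were changed, whereas in the data far more were called. At 1 dpn against 94 dpc, for example, 1939 probe sets were higher and 4284 lower. With so few changed the adjustment is stricter, so that the recovery can understate that in the data. Sample values and tests were given for the members with the 4 largest rises and falls among those called in each comparison, for the most changed called member of each family and for HSP90AA1, HSP90AB1 and HSPA8, and more briefly for others. Outside the 49, up to 3 called genes of largest change were named per list and comparison. The 49 genes and the lists were chosen with earlier results of these data known. Alternatives were other scalings, pseudocounts, filters, probe set rules and sample sets. Those without the 3 samples of low GAPDH ratio, and with that ratio as a covariate, were chosen after seeing the data.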

Additional observations from a re-analysis of the deposited data

Results flagged for a closer look

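In 9 of 196 sets of samples (1 gene at 1 stage), 1 sample lay far from the others by Dixon's ratio of its gap to the range; about 1 in 20 sets do so by chance. CCT4 at 28 dpn had 5160.2 in replicate 1, below 6256 to 6943 in the others. CCT8 at 1 dpn had 3387 in replicate 3, above 1131 to 1683. DNAJB11 at 28 dpn had 56.9 in replicate 4, below 166 to 247. DNAJB4 at 188 dpn had 821 in replicate 5, below 2127 to 2493. HSPA12A at 28 dpn had 38.5 in replicate 5, below 94.8 to 151. HSPA6 at 1 dpn had 4.36 in replicate 4, a sample of low GAPDH ratio, below 65.0 to 160.3. HSPA9 at 28 dpn had 11042 in replicate 1, above 7532 to 8654. HSPB11 at 1 dpn had 479 in replicate 1, below 1069 to 1455. HSPE1 at 188 dpn had 17789 in replicate 5, above 12790.2 to 13594.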

How the results depend on the processing

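Leaving out each sample in turn, 33 to 39 of the 49 genes passed the F test. At 1 dpn against 94 dpc, 15 to 18 were higher and 4 to 7 lower, and at 28 dpn against 1 dpn 3 to 5 higher and 10 to 14 lower. From 7 to 9 were higher and 1 to 3 lower at 188 dpn than at 28 dpn, and 12 to 17 higher and 7 to 9 lower at 188 dpn than at 94 dpc. The 3 higher at 28 dpn came without 1 dpn replicate 1 or 4 or 28 dpn replicate 2, 3, 4 or 6, the 1 lower at 188 dpn without 28 dpn replicate 1 or 2 or 188 dpn replicate 5, and the 12 higher without 188 dpn replicate 3. After centring each array on its median, 2 genes were higher at 28 dpn than at 1 dpn, 1 lower at 188 dpn than at 28 dpn and 5 lower at 188 dpn than at 94 dpc. At 28 dpn against 1 dpn, 2 were higher with only these stages fitted, 2 without the low-GAPDH samples and 3 with the GAPDH ratio as a covariate, and 8 were lower at 1 dpn than at 94 dpc with the mean of a gene's probe sets. With the covariate 11 were lower at 28 dpn than at 1 dpn, 8 of them among the 13 of the main fit. It gave 16 higher at 1 dpn than at 94 dpc, 13 of them among the 17. With only the 2 stages compared fitted, 9 of the 13 and 14 of the 17 kept their call. The cause was not tested. Direction turned at 1 dpn against 94 dpc after quantile normalization for HSP90AA1 (-0.15) and HSP90AB1 (-0.48), and for HSP90AB1 without 94 dpc replicate 3, 1 dpn replicate 2 or 1 dpn replicate 3 (log2 change as low as -0.041, and up to 0.091 over all single omissions). At 188 dpn against 28 dpn HSP90AB1 turned after centring (0.0696) and without 28 dpn replicate 2 or 188 dpn replicate 2 (up to 0.044, and as low as -0.10 over all single omissions). With the mean of probe sets HSPA8 turned at 1 dpn against 94 dpc (-0.16), at 188 dpn against 28 dpn (-0.36) and against 94 dpc (-0.50), BAG1 at 1 dpn against 94 dpc (-0.020), HSPA4 at 28 dpn against 1 dpn (-0.25) and BAG6 there (0.0588). Of 2391 alternative values of 109 named results, 2137 kept direction and call, 231 lost the call, 9 gained one and 14 turned. No paired analysis was possible because replicate numbers were given in accession order only. Without detection calls, no signal over background could be set.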

Other observations

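Within 188 dpn, replicates 1 and 2 held the lowest signals of 9 chaperone genes (18.4%, against 8.03% of all genes): CCT6A, DNAJB1, DNAJB6, HSP90AA1, HSPA4, HSPA6, HSPA8, HSPB2 and HSPB8. They held the highest signals of DNAJC2 and HSPA12A (4.08%, against 9.45% of all genes). CRYAB had 19374 and 21108 in these 2 samples and at least 36439.5 in the other 4. This split was noticed after the values were seen and is a description of these samples.

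Within 1 dpn, the 3 samples of low GAPDH ratio lay above the other 3 for CCT2, DNAJA3, DNAJB6, DNAJC6 and DNAJC8 (10.2%, against 13.0% of all genes). They lay below the other 3 for 9 genes (18.4%, against 14.1% of all genes): CCT7, DNAJA1, DNAJB11, DNAJB2, DNAJC14, DNAJC5, HSPB2, HSPB3 and HSPBP1.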
